A study of Mus musculus with 24 samples.

Results

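The genes described here are 9 mouse genes that set the shape and turnover of mitochondria: Mfn1, Mfn2, and Opa1 (fusion), Oma1 and Yme1l1 (proteases that cut Opa1), Dnm1l, Fis1, and Mff (fission), and Pink1 (mitophagy). They were taken by gene symbol from the 56941 genes listed, and the set was drawn up with earlier results of these data known. All 9 were found, and all 9 were among the 13315 genes that passed a filter on low counts. The study asked how muscle tissue responds to different frequencies of light-driven exercise. Tissues were grown from C2C12, an established line of mouse muscle precursors that join into myotubes, with the genotype ChR2::tdTomato, a light-gated ion channel joined to a red fluorescent protein. Every tissue, controls included, carried the channel, was cultured on grooved fibrin gel, and was differentiated in high glucose DMEM with horse serum and IGF-1. The groups were an unstimulated Control and daily 60-min sessions of blue light at 1, 4, or 10 Hz from the first day of differentiation, with 6 libraries in each group and 24 in all. All tissues came from 1 cell line, and no group received light without the channel, so contraction and light cannot be told apart.

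Mitochondria in muscle form a network that is joined by fusion and cut by fission. The mitofusins Mfn1 and Mfn2 join the outer membranes and Opa1 joins the inner ones, and the proteases Oma1 and Yme1l1 cut Opa1 into its short forms. Fission is carried out by the dynamin-like GTPase Drp1, which Dnm1l encodes and which is brought to the outer membrane by receptors such as Mff. When a mitochondrion loses its membrane potential, the kinase Pink1 builds up on its surface and marks it for removal by autophagy.

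Total estimated counts ran from 8052369 to 18159144 per library. All 8 myotube markers (among them Ckm, Acta1, Ttn, and Myog) had TPM (the deposited transcript level, scaled for gene length and for the library) above 0 in every library. The summed TPM of 6 markers of dividing myoblasts ran from 30.5 to 41.4 in Control, 40.1 to 62.1 at 1 Hz, 30.4 to 47.2 at 4 Hz, and 38.4 to 54.9 at 10 Hz. In Control, Cdk1 (mean 16.5 TPM) and Myf5 (9.96 TPM) were the highest of the 6 and Mki67 (0.413 TPM) the lowest. The study takes another of them, Pax7, as a marker of satellite cells. Of 10 markers of other cell types, only the macrophage-associated Cd68 stood above 1 TPM (55.1 to 102), and the leukocyte marker Ptprc was listed at 0 in 22 of 24 libraries. Among the 6 markers of dividing myoblasts, Myf5 (log2 fold changes 1.32 and 1.17 at 1 and 4 Hz) and Cdk1 (0.62 and 0.51) rose and Pax7 (−1.58 and −1.52) fell. Mki67 (−1.15) and Ccnb1 (−1.06) fell at 4 Hz, by edgeR, and were not called at 1 Hz (−0.13 and −0.19). Top2a was called at neither frequency. Of the myotube markers 1 fell at 1 Hz (Myog, a transcription factor of differentiation), with a log2 fold change of −1.34, and at 4 Hz 1 fell (Myog, −1.47) and 1 rose (Mylpf, 0.57). The part of these markers in the results was not tested. Since RNA came from whole tissues, fewer cells of a type and less RNA per cell cannot be told apart. Libraries also differed in the level of short against long transcripts, read from genes with at least 10 counts in every library. In 5 libraries this difference (0.38 to 0.68 on the log2 scale) lay above that of every Control and 10 Hz library, where the highest was 0.15. These were 1 Hz replicates 4 and 6 and 4 Hz replicates 1, 3, and 4, and the main results are given below with and without them. Reads of mitochondrially encoded genes made up 0.545% to 8.90% of the counts in these 5 libraries, beside 1.37% to 2.72% in Control and 1.44% to 2.56% at 10 Hz. In the other 1 and 4 Hz libraries the share ran from 1.52% to 4.34%, so it overlapped that of the 5. Low-input samples were prepared by ribodepletion, the labels do not say which, and its part in this difference was not tested.

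The promoters of the 5 genes that changed in comparison with Control are shown because 2 of them fell together and 3 rose together. Each line is the stretch just before the most upstream start site in RefSeq (GRCm38.p6), written 5′ to 3′ on the strand of the gene. Capitals mark matches, on either strand, to the letters CCGGAAG of the ETS core, to the E-box letters CAGCTG, to the box named CCAAT, or to the GC box letters GGGCGG.
Mfn1: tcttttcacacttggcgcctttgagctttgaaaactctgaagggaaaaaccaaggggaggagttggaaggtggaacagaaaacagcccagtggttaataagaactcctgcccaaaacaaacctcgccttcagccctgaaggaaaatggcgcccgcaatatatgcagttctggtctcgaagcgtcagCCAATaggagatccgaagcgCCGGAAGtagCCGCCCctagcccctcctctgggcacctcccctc
Dnm1l: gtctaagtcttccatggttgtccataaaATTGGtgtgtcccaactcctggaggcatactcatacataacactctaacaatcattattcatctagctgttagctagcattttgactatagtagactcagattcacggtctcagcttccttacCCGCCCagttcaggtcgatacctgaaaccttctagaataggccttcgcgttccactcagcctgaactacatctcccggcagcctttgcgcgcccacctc
Fis1: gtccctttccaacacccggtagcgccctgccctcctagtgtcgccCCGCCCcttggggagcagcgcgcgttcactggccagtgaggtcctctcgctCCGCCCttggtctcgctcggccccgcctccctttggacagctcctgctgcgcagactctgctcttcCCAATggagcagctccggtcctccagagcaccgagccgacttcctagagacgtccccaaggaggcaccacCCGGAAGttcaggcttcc
Mff: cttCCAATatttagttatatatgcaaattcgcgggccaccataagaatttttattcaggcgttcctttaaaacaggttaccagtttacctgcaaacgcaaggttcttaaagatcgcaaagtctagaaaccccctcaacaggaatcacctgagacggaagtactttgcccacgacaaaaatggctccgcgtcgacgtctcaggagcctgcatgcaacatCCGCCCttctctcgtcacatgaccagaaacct
Pink1: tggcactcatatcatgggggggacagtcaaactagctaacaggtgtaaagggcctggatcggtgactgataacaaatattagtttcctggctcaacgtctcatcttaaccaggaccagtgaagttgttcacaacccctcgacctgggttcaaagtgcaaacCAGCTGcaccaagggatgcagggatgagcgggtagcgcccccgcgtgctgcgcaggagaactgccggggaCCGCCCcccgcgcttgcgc
They lie at chr3:32529232-32529481 (Mfn1), chr16:16359032-16359281 (Dnm1l), chr5:136953025-136953274 (Fis1), chr1:82724640-82724889 (Mff), and chr4:138326297-138326546 (Pink1) of GRCm38.p6. The GC box was found in all 9 genes, against 32.7% of the 32851 promoter stretches in RefSeq of the same length, and the CCAAT box in 6 of 9, against 33.8%. The ETS core was found in Mfn1, Fis1, and Yme1l1 (3 of 9, against 6.91%), so it was present both in a gene that fell and in one that rose. The E-box was found in Pink1 alone (1 of 9, against 13.0%) and the letters GCATGCG of the NRF1 core in Opa1 alone (1 of 9, against 3.02%). The ERR letters AAGGTCA, the FoxO letters GTAAACA, and the CREB letters TGACGT were found in none of the 9 stretches, against 4.08%, 3.17%, and 6.47% of all stretches. No 2 different motifs overlapped in these 9 stretches. These matches describe the letters only.

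Per unit of transcript length, the fission receptors were the most abundant of the 9 genes and Oma1 was the least. In Control, Fis1 stood at 165 ± 11.4 TPM (SD, n = 6) and Mff at 138 ± 9.09 TPM. Yme1l1 (84.6 ± 6.90 TPM) and Pink1 (74.0 ± 7.14 TPM) followed and did not differ beyond their spread. Dnm1l (50.0 ± 3.60 TPM) and Mfn2 (44.8 ± 1.16 TPM) came next, then Opa1 (29.4 ± 2.93 TPM) and Mfn1 (27.3 ± 2.51 TPM), and in both pairs the libraries overlapped. Oma1 was lowest with 6.26 ± 1.80 TPM. In all 4 groups Fis1 was first, Mff second, Mfn1 eighth, and Oma1 last. Pink1 and Yme1l1 changed places at 1 and 4 Hz, where Pink1 stood at 73.5 ± 8.58 and 79.4 ± 10.9 TPM and Yme1l1 at 69.3 ± 10.8 and 59.2 ± 9.38 TPM, with overlapping libraries. Dnm1l and Mfn2 also changed places, with Dnm1l at 32.6 ± 6.01 and 28.5 ± 4.92 TPM and Mfn2 at 37.9 ± 7.45 and 36.8 ± 5.77 TPM, again with overlap.

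Compared with Control, 1 Hz tissues differed in 4 of 9 genes, 4 Hz tissues in 5, and 10 Hz tissues in 0, by edgeR's quasi-likelihood test at an adjusted p under 0.05. Of all tested genes, 37.3% passed the same test at 1 Hz, 51.4% did so at 4 Hz, and 0.0376% did so at 10 Hz. The shares among these 9 genes were near that background. At 1 Hz, 2 rose (19.2% of all genes) and 2 fell (18.1% of all genes). At 4 Hz, 3 rose (27.5% of all genes) and 2 fell (23.9% of all genes). The 9 genes had a median log2 fold change of −0.07, −0.10, and −0.11 at 1, 4, and 10 Hz, beside 0.04, 0.06, and 0.01 over all tested genes. Dnm1l and Mfn1 fell at 1 and 4 Hz, Fis1 rose at both, and Mff and Pink1 rose at 4 Hz. Mff was also called higher at 1 Hz, a call that only 1 of 13 other treatments of the data gave. The 3 comparisons share the same 6 Control libraries. At 10 Hz, 1 of the 9 genes (Opa1) had an unadjusted p under 0.05, and neither edgeR nor DESeq2 called any.

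**Figure D1:**
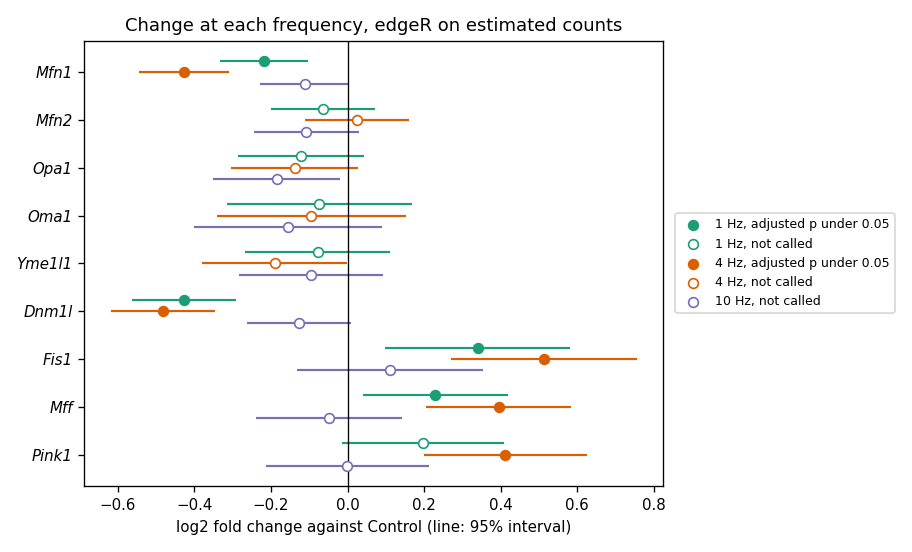
Log2 fold change of each of the 9 genes against Control (horizontal axis) at 1 Hz (green), 4 Hz (orange), and 10 Hz (purple), from edgeR on estimated counts, with 95% intervals. Filled points passed an adjusted p under 0.05: Mfn1 and Dnm1l on the negative side and Fis1 and Mff on the positive side at 1 and 4 Hz, and Pink1 on the positive side at 4 Hz.

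Mfn1, the smaller contributor of the 2 mitofusins by level, fell with stimulation at 1 and 4 Hz. It lies on chromosome 3 (GRCm39, chr3:32583599-32645888, plus strand). In CPM (counts scaled to library size, with TMM factors), its lowest, median, and highest Control libraries were 53.3, 55.9, and 59.2. At 1 Hz they were 44.9, 48.7, and 52.3, and at 4 Hz 39.4, 41.5, and 43.9. At 10 Hz they were 49.8, 52.1, and 53.5. Every 1 Hz and every 4 Hz library lay below every Control library, and 5 of 6 libraries at 10 Hz did so. Groups without overlap in either direction were seen for 14.1% of all genes at 1 Hz and 27.6% at 4 Hz. The log2 fold change was −0.22 ± 0.06 (SE) at 1 Hz (edgeR adjusted p = 0.0034), −0.43 ± 0.06 at 4 Hz (adjusted p = 1.1e-06). At 10 Hz it was −0.11 ± 0.06 (adjusted p = 0.62). Every 4 Hz library was also below every 1 Hz library, as 0.376% of all genes were without overlap, with a log2 difference of −0.21 that did not pass in edgeR (adjusted p = 0.26) and passed in DESeq2 (adjusted p = 0.027). From 4 to 10 Hz the level was higher by 0.32 ± 0.06 on the log2 scale (edgeR adjusted p = 8.9e-05).

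Mfn2, which also tethers mitochondria to the endoplasmic reticulum, was not called in comparison with Control by edgeR with TMM, and other treatments of the data called it at 4 Hz in opposite directions. It lies at chr4:147955508-147989585 (GRCm39, minus strand). Control libraries ran from 116 to 127 CPM around a median of 121. At 1 Hz they ran from 103 to 131 CPM (median 117), at 4 Hz from 116 to 139 CPM (median 120), and at 10 Hz from 101 to 123 CPM (median 114), so each group overlapped Control. The log2 fold changes were −0.06 ± 0.07 at 1 Hz, 0.02 ± 0.07 at 4 Hz, and −0.11 ± 0.07 at 10 Hz, with edgeR adjusted p of 0.46, 0.77, and 0.73. The 95% interval of the change at 4 Hz ran from −0.11 to 0.16. The sign at 4 Hz was positive with TMM and negative with DESeq2 (−0.006429). With the length trend removed, which is explained below, it was 0.15 (adjusted p = 0.045), and on log2(TPM + 1) it was −0.29 (limma adjusted p = 0.049).

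The balance of the mitofusins within a library leaned further to Mfn2 in every 4 Hz library than in any Control library. Mfn2 made up 62.2% ± 2.54 (SD, n = 6) of the summed TPM of both mitofusins in Control, 66.7% ± 1.22 at 1 Hz, 70.3% ± 2.04 at 4 Hz. Its share was 63.4% ± 2.74 at 10 Hz. The 4 Hz libraries (68.1% to 72.5%) lay above all Control libraries (58.9% to 65.2%) and above all at 1 Hz (64.9% to 67.8%). On TMM-scaled CPM the shares were 68.4% in Control and 74.7% at 4 Hz. No test was run on this share.

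Opa1, the inner membrane fusion GTPase, was lower in the mean at each frequency and was not called by edgeR with TMM. Its gene spans chr16:29398108-29473858 (GRCm39, plus strand). The lowest, median, and highest libraries were 75.4, 87.1, and 92.3 CPM in Control, 69.8, 80.0, and 88.0 at 1 Hz, 66.4, 79.9, and 85.4 at 4 Hz, and 65.9, 73.7, and 86.0 at 10 Hz. All groups overlapped. The log2 fold changes were −0.12 ± 0.08, −0.14 ± 0.08, and −0.19 ± 0.08 at 1, 4, and 10 Hz (edgeR adjusted p = 0.23, 0.15, and 0.54). On log2(TPM + 1), limma called Opa1 lower at both 1 and 4 Hz (−0.43 and −0.53, adjusted p = 0.0496 and 0.010), whereas with the length trend removed the 4 Hz value was 0.003838. Opa1 at 10 Hz had an unadjusted p of 0.027, the smallest of the 9 genes at that frequency, where 8.07% of all genes had an unadjusted p under 0.05.

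**Figure D2:**
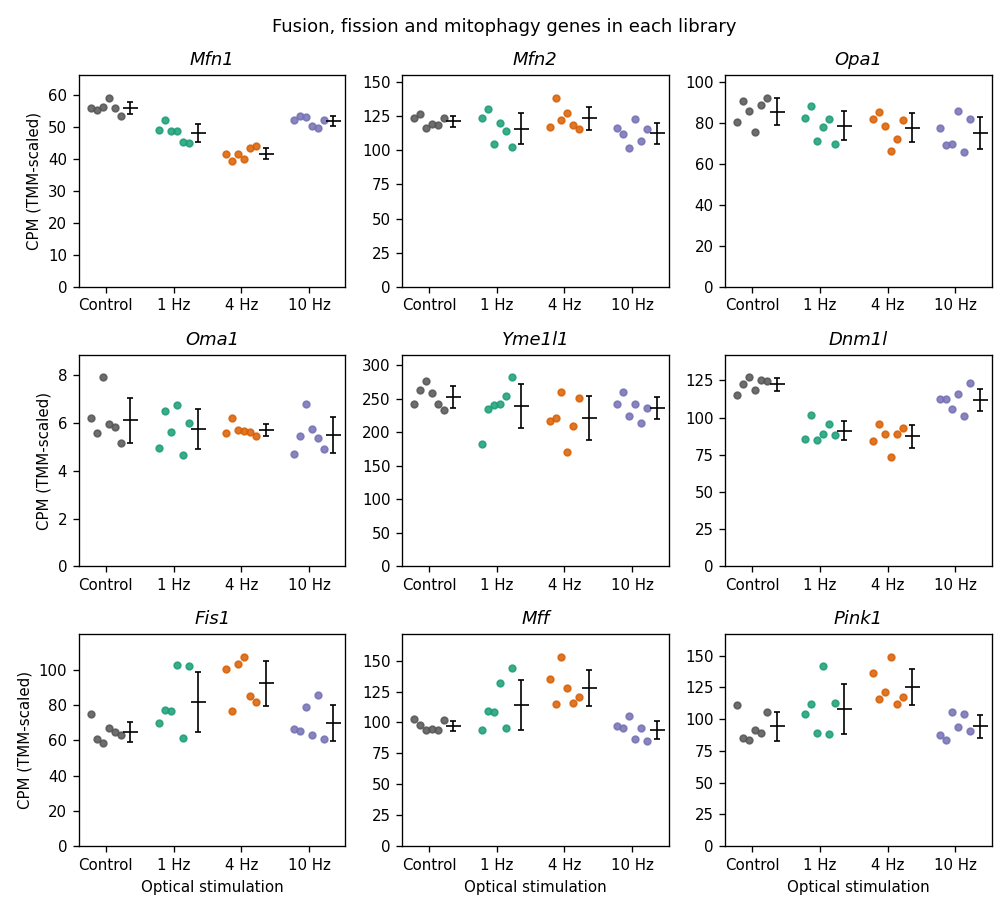
TMM-scaled CPM (vertical axes, starting at 0) of the 9 genes in each of the 24 libraries by group (horizontal axes), with the mean and SD beside the points. Mfn1 and Dnm1l at 1 and 4 Hz lay below every Control library, and Fis1, Mff, and Pink1 at 4 Hz lay above every Control library.

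Neither protease that cuts Opa1 was called by edgeR with TMM in the fit of all 24 libraries. Oma1, the protease that responds to stress, lies at chr4:103170737-103229065 (GRCm39, plus strand) and ran from 5.17 to 7.91 CPM in Control, 4.65 to 6.77 at 1 Hz, 5.47 to 6.19 at 4 Hz, and 4.70 to 6.78 at 10 Hz. Its log2 fold changes were −0.07 ± 0.12, −0.10 ± 0.12, and −0.16 ± 0.12 (edgeR adjusted p = 0.72, 0.52, and 0.83). The 95% interval at 4 Hz ran from −0.34 to 0.15. The sign of Oma1 at 4 Hz was positive with effective length offsets (0.11). Yme1l1, the protease active without stress, lies at chr2:23046034-23089281 (GRCm39, plus strand) and was the gene of the 9 with the highest CPM. Its lowest, median, and highest libraries were 233, 251, and 276.3 CPM in Control, 183, 241, and 282 at 1 Hz, 170, 219, and 260 at 4 Hz, and 214, 239, and 261 at 10 Hz. At 4 Hz, 4 of 6 libraries lay below every Control library. The log2 fold changes of Yme1l1 were −0.08 ± 0.09, −0.19 ± 0.09, and −0.10 ± 0.09 (edgeR adjusted p = 0.52, 0.081, and 0.88). It did pass at 4 Hz when replicate 3 of that group was left out (−0.27, adjusted p = 0.019), or replicate 6 (−0.23, adjusted p = 0.043), and in a fit of the 2 groups alone (−0.22, adjusted p = 0.042). On log2(TPM + 1), limma also called Yme1l1 lower at 4 Hz (−0.52, adjusted p = 5.9e-04).

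Dnm1l, which encodes the fission GTPase Drp1, had the smallest adjusted p of the 9 genes at 1 Hz and fell at 1 and 4 Hz. Its gene spans chr16:16128677-16176904 (GRCm39, minus strand). The lowest, median, and highest Control libraries were 115, 124, and 127 CPM. They were 85.1, 88.9, and 101 CPM at 1 Hz, 73.9, 89.3, and 95.4 CPM at 4 Hz, and 101, 113, and 123 CPM at 10 Hz. Every 1 Hz and 4 Hz library lay below every Control library, and 4 of 6 at 10 Hz did so. The log2 fold change was −0.43 ± 0.07 at 1 Hz (edgeR adjusted p = 1.9e-05) and −0.48 ± 0.07 at 4 Hz (adjusted p = 1.8e-06), so that the level fell by 25.6% and fell by 28.4%. At 10 Hz it was −0.13 ± 0.07 (adjusted p = 0.64). The level at 10 Hz was higher than at 1 Hz by 0.30 ± 0.07 (adjusted p = 0.0015) and than at 4 Hz by 0.35 ± 0.07 (adjusted p = 1.3e-04) on the log2 scale, whereas 4 Hz and 1 Hz differed by −0.06 (95% interval −0.19 to 0.08, adjusted p = 0.76).

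Fis1 and Mff, a pair of outer membrane proteins of which Mff recruits Drp1, went the other way. Fis1 lies at chr5:136982101-136995089 (GRCm39, plus strand). Its lowest, median, and highest libraries were 58.4, 63.6, and 75.03 CPM in Control, 61.5, 77.0, and 103 at 1 Hz, 76.4, 92.7, and 107 at 4 Hz, and 60.5, 65.7, and 85.8 at 10 Hz. All 6 libraries at 4 Hz and 4 of 6 at 1 Hz stood above every Control library, and at 1 Hz replicates 4 and 6 were the highest. The log2 fold change of Fis1 was 0.34 ± 0.12 at 1 Hz (edgeR adjusted p = 0.024), 0.51 ± 0.12 at 4 Hz (adjusted p = 7.8e-04). At 10 Hz it was 0.11 ± 0.12 (adjusted p = 0.91). It was the 1 gene of the 9 with a change over 0.5 on the log2 scale that passed the test, against 25.1% of all genes at 4 Hz. With the same limit of 0.5, 0 of 9 passed at 1 Hz (14.9% of all genes), 0 for 10 against 1 Hz (10.8%), and 0 for 10 against 4 Hz (21.2%). The rise at 1 Hz did not pass without Control replicate 3 (adjusted p = 0.0501), 1 Hz replicate 4 (0.24 log2, adjusted p = 0.11), or 1 Hz replicate 6 (0.24 log2, adjusted p = 0.11). Fis1 was lower at 10 Hz than at 4 Hz by a log2 difference of −0.40 ± 0.12 (adjusted p = 0.0069).

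Mff lies at chr1:82702582-82730684 (GRCm39, plus strand). Its lowest, median, and highest libraries were 93.7, 96.1, and 103 CPM in Control, 94.2, 109, and 144 at 1 Hz, 115, 124, and 153 at 4 Hz, and 85.2, 95.4, and 105 at 10 Hz. The 4 Hz group did not overlap Control, and 4 of 6 libraries at 1 Hz stood above it. The log2 fold change of Mff was 0.23 ± 0.09 at 1 Hz (edgeR adjusted p = 0.049), 0.39 ± 0.09 at 4 Hz (adjusted p = 8.9e-04). At 10 Hz it was −0.05 ± 0.09 (adjusted p = 0.96). The call at 1 Hz was lost without any 1 of the 6 Control libraries or of 1 Hz replicates 2, 3, 4, and 6 (adjusted p up to 0.27). It was also lost with DESeq2 (adjusted p = 0.054), with DESeq2 size factors in edgeR (0.056), with no filter (0.16), with a stricter filter (0.057), and in a fit of the 2 groups alone (0.070), and it was kept with upper-quartile factors (0.045). Mff was lower at 10 Hz than at 1 Hz by a log2 difference of −0.28 ± 0.09 (adjusted p = 0.026) and than at 4 Hz by −0.44 ± 0.09 (adjusted p = 4.2e-04).

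Pink1, the kinase that starts one route of mitophagy, rose at 4 Hz. It lies at chr4:138039346-138053618 (GRCm39, minus strand). The lowest, median, and highest libraries were 83.6, 90.3, and 111 CPM in Control, 88.5, 108, and 142 at 1 Hz, 112, 120, and 149 at 4 Hz, and 83.4, 92.2, and 106 at 10 Hz. At 4 Hz the group did not overlap Control, while at 1 Hz 3 of 6 libraries stood above it. The log2 fold change was 0.20 ± 0.10 at 1 Hz (edgeR adjusted p = 0.13), 0.41 ± 0.10 at 4 Hz (adjusted p = 0.0017). At 10 Hz it was 0.00 ± 0.10 (adjusted p = 1.0). The direct comparison of 4 Hz with 1 Hz gave 0.21 ± 0.10 and did not pass (adjusted p = 0.44). The comparison of 10 Hz with 4 Hz gave −0.41 ± 0.10 and passed (adjusted p = 0.0022), and every 10 Hz library was below every 4 Hz library, where groups without overlap made up 18.9% of all genes.

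In comparisons between frequencies, 0 of 9 genes differed between 4 and 1 Hz by edgeR, and 0% of all genes passed. Without adjustment, 2 of 9 (Mfn1 and Pink1) and 11% of all genes had p under 0.05. DESeq2 called 1 (Mfn1) of the 8 of these genes that it tested, against 0.336% of the 7433 genes it tested. Between 10 and 1 Hz, 2 of 9 differed (Dnm1l and Mff), against 27.9% of all genes. Between 10 and 4 Hz, 5 of 9 differed, against 46.3% of all genes, and these were the genes that had changed at 4 Hz in comparison with Control. The 4 Hz libraries are in both of those comparisons.

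The summed TPM of the 3 fission genes overlapped between all groups, whereas the ratio of Dnm1l to Fis1 at 4 Hz did not overlap Control. The sum was 353 ± 16.4 TPM (SD, n = 6) in Control, 346 ± 14.1 at 1 Hz, 358 ± 12.5 at 4 Hz. Tissues stimulated at 10 Hz had 359 ± 11.6. The ratio of Dnm1l to Fis1 was 0.305 ± 0.0370 in Control, 0.187 ± 0.0423 at 1 Hz, 0.155 ± 0.0323 at 4 Hz, and 0.262 ± 0.0548 at 10 Hz, with the 4 Hz libraries (0.112 to 0.201) below all Control libraries (0.246 to 0.351). The summed TPM of Mfn1, Mfn2, and Opa1 over that of Dnm1l, Fis1, and Mff was 0.288 ± 0.0146 in Control, 0.228 ± 0.0470 at 1 Hz, 0.203 ± 0.0300 at 4 Hz, and 0.2498 ± 0.0386 at 10 Hz. On TMM-scaled CPM this last ratio was 0.924 ± 0.0280 in Control and 0.792 ± 0.0748 at 4 Hz, a log2 change of −0.23 where TPM gave −0.52. Of all 24 libraries, the 5 that stood apart in short against long transcripts had the lowest Dnm1l to Fis1 ratios (0.112 to 0.1425). They also had the lowest TPM ratios of fusion to fission genes (0.161 to 0.189). The other 4 Hz libraries (0.164 to 0.201 for Dnm1l to Fis1) still lay below all Control libraries. These ratios, and the part of transcript length in them, were not tested.

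Transcript length moved with the direction of change. Tested genes with at least 10 counts and a TPM above 0 in every library were ordered by the effective length of their transcripts. They were split into 5 groups of about 2301 genes. The median log2 fold change at 4 Hz was 0.35 in the shortest group and −0.14 in the longest. At 1 Hz the medians were 0.24 and −0.10, and at 10 Hz 0.03 and 0.00. Fis1 and Mff were in the shortest group, Oma1 and Pink1 in the second, Mfn1 and Dnm1l in the fourth, and Mfn2, Opa1, and Yme1l1 in the longest. At 4 Hz, Fis1 stood 0.16 and Mff 0.04 above the median of their length group, and Pink1 stood 0.31 above it. Mfn1 stood 0.35 and Dnm1l 0.41 below the median of theirs. Dnm1l lay at percentile 19.1 and Mfn1 at 22.3 of their length group, and Pink1 at 83.1. When the trend on length was removed from each library, Dnm1l fell by 0.37 and Mfn1 fell by 0.33 on the log2 scale at 4 Hz (edgeR adjusted p = 1.9e-06 and 1.7e-05), and Pink1 (0.39, adjusted p = 7.1e-04) and Mff (0.20, adjusted p = 0.0056) rose. Fis1 was at 0.12 and no longer passed (adjusted p = 0.053). At 1 Hz, Fis1 (0.08, adjusted p = 0.26) and Mff (0.10, adjusted p = 0.21) were not called with the trend removed, whereas Dnm1l and Mfn1 were. The part of length in these results was not tested further.

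**Figure D3:**
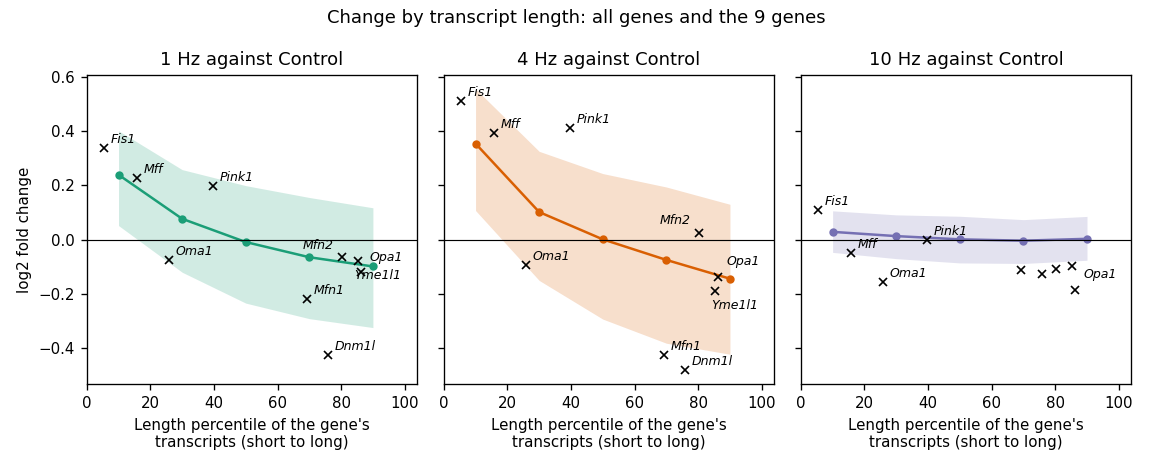
Log2 fold change against Control (vertical axis) by percentile of transcript length (horizontal axis). Lines join the medians of 5 equal groups of genes with at least 10 counts in every library. Bands span the range from the lower to the upper quartile. Crosses are the 9 genes (at 10 Hz only the outer ones are named). At 1 and 4 Hz the medians descend from short to long, and Dnm1l and Mfn1 lie below them.

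Without the 5 libraries that stood apart in short against long transcripts, Dnm1l and Mfn1 were still called at both frequencies and 2 of 9 genes changed at 1 Hz in place of 4. Over all genes, 32.3% passed in this run at 1 Hz and 36.7% at 4 Hz. The rule could leave out only 1 and 4 Hz libraries. In short against long transcripts, the 4 Hz libraries kept stood at −0.07, 0.15, and 0.12 (replicates 2, 5, and 6). Control ran from −0.30 to 0.02 around a median of −0.24, so this run did not remove the difference at 4 Hz. At 4 Hz, where 3 libraries were left, 5 of 9 genes were called, with log2 fold changes of −0.43 (adjusted p = 6.9e-05) for Dnm1l, −0.43 (adjusted p = 3.8e-05) for Mfn1, 0.30 (adjusted p = 0.025) for Fis1, 0.24 (adjusted p = 0.012) for Mff, and 0.26 (adjusted p = 0.035) for Pink1. At 1 Hz, Fis1 was at 0.14 (edgeR adjusted p = 0.27) and Mff at 0.06 (adjusted p = 0.49).

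The deposited TPM gave another balance of directions. On log2(TPM + 1), the median of all genes moved by −0.14 at 1 Hz and −0.21 at 4 Hz, and 14.2% of the calls at 4 Hz were higher, against 53.6% with TMM. On that scale, limma called Dnm1l, Mfn1, Mfn2, Opa1, and Yme1l1 lower at 4 Hz, and it called none of Fis1 (0.17, adjusted p = 0.055), Mff (0.06, adjusted p = 0.55), and Pink1 (0.09, adjusted p = 0.46). With each library centred on its median, the 5 genes called at 4 Hz were those called with TMM, and 44.7% of all genes were called. Relative to the median gene, then, Fis1, Mff, and Pink1 were higher, whereas in TPM without centring their levels at 4 Hz overlapped those of Control. TPM is scaled within each library, so neither scale gives an absolute amount of RNA.

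**Figure D4:**
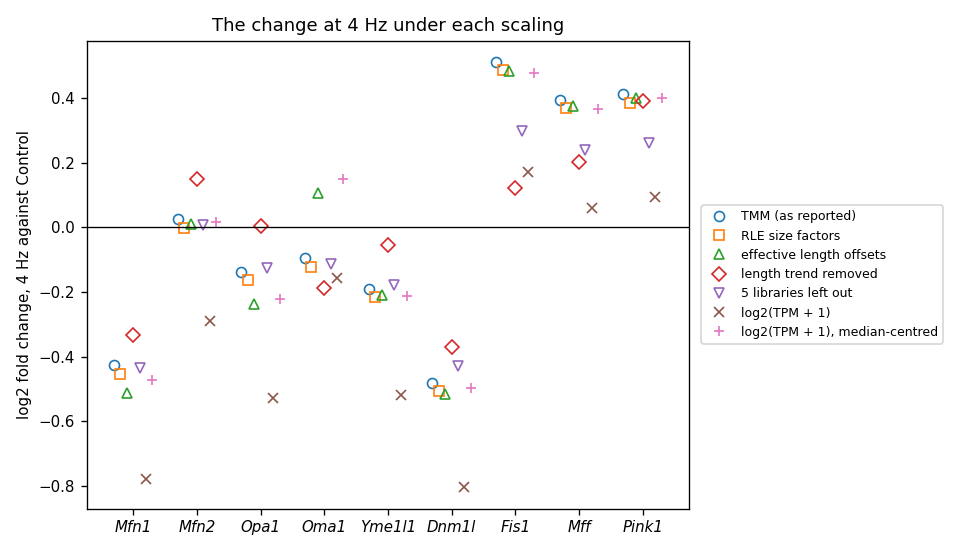
Log2 fold change at 4 Hz against Control (vertical axis) of the 9 genes under TMM and 6 other treatments of the data. Dnm1l and Mfn1 are below 0 under each of them, and Fis1, Mff, and Pink1 are above 0 under each. Mff and Pink1 come nearest to 0 on log2(TPM + 1), and Fis1 does so with the length trend removed.

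Most of the 9 genes overlap a gene on the other strand, and although the library kit keeps the strand, how counting used it is not given in the sources used here. In GENCODE M39, 8 of 9 have a gene on the opposite strand. The largest shared exon stretches are 5448 bases of Mfn1 with Gnb4, 3594 bases of Dnm1l with Yars2 (a mitochondrial tyrosyl-tRNA synthetase), and 1514 bases of Pink1 with Ddost. Gnb4 stood at 10.5 CPM in Control with log2 fold changes of 0.08 at 1 Hz and 0.02 at 4 Hz (edgeR adjusted p = 0.63 and 0.91), and Yars2 at 17.3 CPM with −0.19 and −0.18 (adjusted p = 0.19 and 0.20). Ddost stood at 125 CPM, above Pink1, with log2 fold changes of 0.14 at 1 Hz and 0.22 at 4 Hz (adjusted p = 0.098 and 0.0098). Its part in the rise of Pink1 was not tested.

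Other genes of the same processes were read from 5 lists of 56 genes, of which 53 were tested. At 1 Hz 18 of 53 changed (8 higher, 10 lower) and at 4 Hz 30 of 53 (16 higher, 14 lower), against 37.3% and 51.4% of all genes, and at 10 Hz 0 did. The median log2 fold change of the 53 genes was −0.01, 0.03, and −0.04 at 1, 4, and 10 Hz. At 4 Hz, 5 of 13 fission partners fell (23.9% of all genes) and 6 of 8 genes of the cristae rose (27.5%). With the length trend removed these counts were 5 and 1 (49.3% of all genes called). Without the 5 libraries they were 3 and 4 (36.7% of all genes called).

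Among fusion partners, 1 of 4 fell at 1 Hz (18.1% of all genes), and at 4 Hz 1 rose (27.5%) and 2 fell (23.9%). Miga2, an outer membrane protein that promotes fusion, fell from 13.7 ± 1.38 CPM (SD, n = 6) to 9.04 ± 1.48 at 1 Hz and 7.35 ± 0.93 at 4 Hz, or by 0.60 and by 0.90 on the log2 scale (edgeR adjusted p = 6.6e-04 and 5.3e-06). Stoml2, an inner membrane scaffold, rose from 32.0 ± 2.69 to 41.0 ± 6.27 CPM at 4 Hz (log2 fold change 0.35, adjusted p = 0.011), and stood at 0.08 with the length trend removed (adjusted p = 0.36).

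Among 13 fission partners, 1 rose (19.2% of all genes) and 3 fell (18.1%) at 1 Hz. At 4 Hz, 1 rose (27.5%) and 5 fell (23.9%). Akap1, which anchors protein kinase A to the outer membrane, fell from 90.8 ± 3.86 CPM to 63.1 ± 6.56 at 1 Hz and 61.9 ± 6.66 at 4 Hz (log2 fold changes −0.53 and −0.55, edgeR adjusted p = 9.1e-05 and 2.7e-05), with every library below every Control library. Senp5, a SUMO protease, fell by 0.61 on the log2 scale at 4 Hz (adjusted p = 0.0070). Mtfr2 rose from 1.23 ± 0.13 CPM to 2.998 ± 0.36 at 1 Hz and 2.28 ± 0.40 at 4 Hz (log2 fold changes 1.26 and 0.87, adjusted p = 1.4e-04 and 0.0039). Without the 5 libraries, Mtfr2 at 4 Hz was at 0.74 (adjusted p = 0.059).

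Among 9 inner membrane proteases and prohibitins, 1 rose (19.2% of all genes) and 1 fell (18.1%) at 1 Hz. At 4 Hz, 3 rose (27.5%). Spg7, a subunit of the matrix AAA protease, stood at 37.2 ± 1.85 CPM in Control and 46.8 ± 5.54 at 4 Hz (log2 fold change 0.33, edgeR adjusted p = 0.0041). Dele1, which relays mitochondrial stress to the cytosol after cleavage by Oma1, stood at 46.5 ± 2.83 CPM in Control and rose to 56.2 ± 5.09 at 4 Hz (log2 fold change 0.27, adjusted p = 0.0063). With the length trend removed, 3 of the list rose and 3 fell at 4 Hz (49.3% of all genes called). Without the 5 libraries 0 rose and 2 fell (36.7% of all genes called).

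Among 19 mitophagy receptors and regulators, 4 rose (19.2% of all genes) and 5 fell (18.1%) at 1 Hz. At 4 Hz, 5 rose (27.5%) and 7 fell (23.9%). Bnip3l, a receptor of the hypoxia-linked route, rose from 343 ± 20.5 CPM to 443 ± 54.7 at 1 Hz and 481 ± 60.6 at 4 Hz (log2 fold changes 0.37 and 0.49, edgeR adjusted p = 9.3e-04 and 2.5e-05). Bnip3, its close relative, rose by 0.47 at 1 Hz and 0.61 at 4 Hz (adjusted p = 0.015 and 0.0016). Tomm7, which helps hold Pink1 at the outer membrane, rose by 0.55 and 0.80 (adjusted p = 0.0089 and 2.7e-04). Pgam5, a phosphatase that stabilizes Pink1, fell from 79.7 ± 5.58 CPM to 62.9 ± 6.13 at 1 Hz and 60.3 ± 2.15 at 4 Hz (log2 fold changes −0.34 and −0.40, adjusted p = 2.6e-04 and 2.1e-05).

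Among 8 genes of the cristae junctions, 2 rose at 1 Hz and 6 at 4 Hz, and none fell, with a median log2 fold change of 0.29 and 0.41. At 1 Hz 19.2% of all genes rose. At 4 Hz 27.5% did, and 54.2% of the genes in the shortest length group described above. Chchd6, a subunit of the cristae-forming MICOS complex, rose from 7.83 ± 1.00 CPM to 12.0 ± 2.42 at 1 Hz and 14.8 ± 2.75 at 4 Hz (log2 fold changes 0.63 and 0.91, edgeR adjusted p = 7.6e-04 and 6.0e-06). Micos13, another subunit, rose from 41.7 ± 3.27 to 65.6 ± 16.7 CPM at 4 Hz (log2 fold change 0.65, adjusted p = 0.0026), and Micos10 rose by 0.69 (adjusted p = 0.0044). With the length trend removed, 1 of 8 (Chchd6, 0.67) rose at 4 Hz, and Micos13 stood at 0.18 (adjusted p = 0.064). In that run 49.3% of all genes were called at 4 Hz. Without the 5 libraries, 4 of 8 rose (36.7% of all genes called). The median at 1 Hz was 0.064 with the trend removed and −0.009444 without the 5 libraries. On log2(TPM + 1), 2 rose and 2 fell at 4 Hz, with a median of 0.054, where 41.8% of all genes were called.

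The 9 genes of a reference for mitochondrial content moved less uniformly. At 4 Hz 3 rose (27.5% of all genes) and 1 fell (23.9%), with a median log2 fold change of 0.10. On log2(TPM + 1), by contrast, 2 rose and 5 fell, with a median of −0.23, where 41.8% of all genes were called. The respiratory chain subunit Cox4i1 rose from 255 ± 19.4 to 407 ± 99.0 CPM (log2 fold change 0.67, edgeR adjusted p = 0.0016). The matrix chaperone Hspd1 fell from 688 ± 60.3 to 435 ± 23.98 CPM (log2 fold change −0.66, adjusted p = 2.7e-07). With the length trend removed, Cox4i1 stood at 0.25 (edgeR adjusted p = 0.0081) and Hspd1 at −0.65 (adjusted p = 6.3e-08) at 4 Hz.

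**Figure D5:**
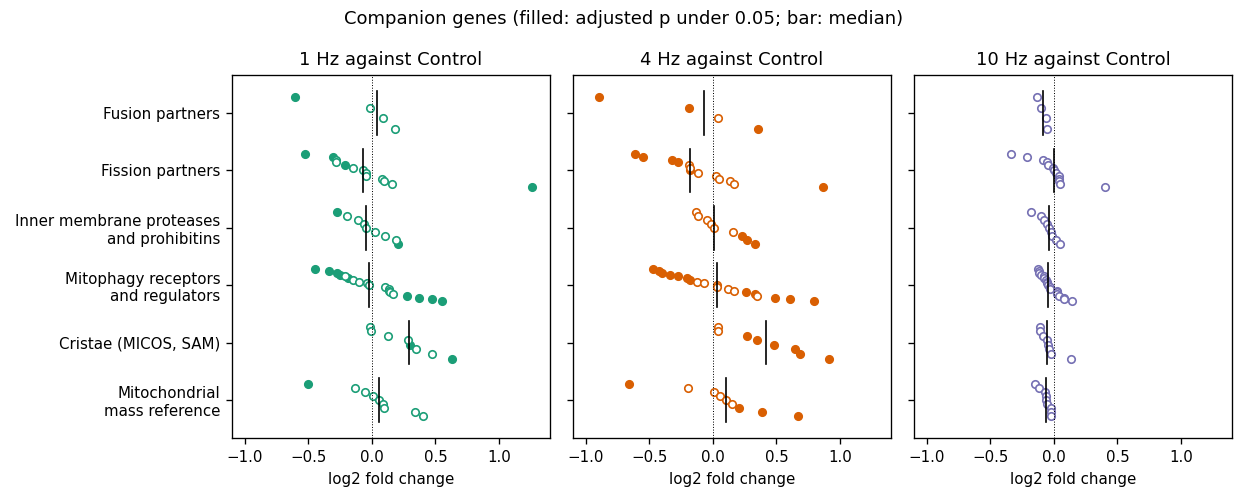
Log2 fold change against Control (horizontal axes) of the tested genes of 6 lists at each frequency, with filled points for an adjusted p under 0.05 and a bar at the median of each list. The cristae genes at 4 Hz lie above 0, fission partners mostly below, and no gene is filled at 10 Hz.

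The genes whose level followed Dnm1l most closely over the 24 libraries, by the root mean square difference of centred log2 CPM, were Cdv3 (0.0709) and Ints8 (0.0711), against a median of 0.345 over all genes. The nearest genes to Pink1 were Macrod1 (0.0791) and the autophagosome protein gene Map1lc3a (0.0878). The nearest to Mfn2 were Atp6v0a1 (0.0669), a subunit of the lysosomal proton pump, and Atg9a (0.0677), an autophagy membrane protein, against a median of 0.283. These genes were picked on the same libraries, so their differences between groups follow from the choice and are not given as results.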

How the data were processed

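RNA from 24 tissues was read as poly(A)-selected, directional, paired-end libraries, and the labels state that low-input samples were ribodepleted without naming them. The authors processed the reads with STAR and Salmon on GRCm39 and deposited estimated counts and TPM per gene. Per the study's methods, BWA mapped reads and bedtools served quality metrics. The submitters' processing notes give them as BWA 0.7.12-r1039 and bedtools 2.25.0. Here the deposited estimated counts, of which 6.15% were not whole, were rounded, filtered with filterByExpr (minimum count 10, minimum total 15), scaled by TMM, and tested with the quasi-likelihood test of edgeR 4.0.16 (R 4.3.3) in 1 fit of 24 libraries, with Benjamini-Hochberg adjustment over 13315 genes. The deposited TPM served for levels between genes and for limma 3.58.1 on log2(TPM + 1) or log2(TPM + 0.1), and DESeq2 1.42.0 was an alternative. The fit was also run on simulated counts with known changes. These were drawn from the Control profile with the same spread for all genes and no length difference, so that run does not bear on the length trend. Log2 fold changes are printed with SE, and levels with SD over 6 libraries. The study describes the 6 libraries of a group as biological replicates, all of 1 cell line. No 2 libraries were alike within sampling noise. The lengths behind the length trend were taken from estimated counts over TPM. Trends on length entered the edgeR fit as offsets per library (lowess).

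The 9 genes, the gene lists, and the tests were chosen with earlier results of these data known. The named genes are the 9, the 2 of each list with the smallest p against Control, those of the lists with an absolute log2 change over 0.5 that passed, and the 2 genes most like Mfn2, Dnm1l, and Pink1. Gene positions are from GENCODE M39 on GRCm39, and promoter stretches from RefSeq on GRCm38.p6, where 9 of 9 genes matched. A sample's group came from its title.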

Additional observations from a re-analysis of the deposited data

Results flagged for a closer look

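Oma1 stood at 6.19 CPM in 4 Hz replicate 2, whereas the other 5 libraries of that group lay close together from 5.47 CPM upward. It was picked because its gap to the nearest library was a large part of the range of the group. This was 1 of 36 groups checked (9 genes in 4 groups), and chance alone picks about 1 in 20. The group still lay within the Control range of Oma1.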

How the results depend on the processing

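The falls of Dnm1l and Mfn1 at 1 and 4 Hz passed under each alternative run and without any 1 library, except where an absolute log2 change over 0.5 was also required. For Dnm1l the log2 fold change at 4 Hz ran from −0.82 to −0.37, and for Mfn1 from −0.82 to −0.33. The alternatives with effective length offsets, with the length trend removed, and without the 5 libraries were chosen after seeing the data. Requiring also an absolute log2 change over 0.5 left 0 of the 9 genes at 1 Hz, 1 at 4 Hz, 0 for 10 against 1 Hz, and 0 for 10 against 4 Hz, and 5 and 9 companion genes at 1 and 4 Hz. At 1 Hz, 2 of the 9 were called on log2(TPM + 0.1) (25.2% of all genes), on centred TPM (29.6%), with the length trend removed (38.2%), and without the 5 libraries (32.3%). Without the 5 libraries, 19 of 53 companion genes were called at 4 Hz, against 36.7% of all genes. For 10 against 1 Hz, 1 was called with no filter (9.6% of all genes), with only the 2 groups (20.3%), and with centred TPM (20%). The count was also 1 with effective length offsets (21.4%) and without the 5 libraries (20.7%). DESeq2 called 1 for 4 against 1 Hz (0.336% of the genes it tested). For 10 against 4 Hz, 3 were called on log2(TPM + 1) and on log2(TPM + 0.1), against 38.4% and 38.1% of all genes. The log2 change of the fusion to fission ratio at 4 Hz was −0.52 in TPM and −0.23 in CPM. Of the calls over all genes at 1 Hz, 51.5% were higher with TMM and 14.2% on log2(TPM + 1). The causes were not tested.

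Leaving out 1 library at a time gave 2 to 4 of the 9 genes at 1 Hz, 5 to 6 at 4 Hz, 0 to 0 at 10 Hz, 0 to 0 for 4 against 1 Hz, 1 to 3 for 10 against 1 Hz, and 5 to 5 for 10 against 4 Hz. For companion genes it gave 13 to 22, 27 to 31, and 0 to 0. In the same runs these log2 values changed sign: Pink1 at 10 Hz (−0.037 to 0.051), Oma1 at 1 Hz (−0.15 to 0.01046), Mfn2 at 4 Hz (−0.01313 to 0.042), Opa1 (−0.051 to 0.022) and Oma1 (−0.078 to 0.029) for 4 against 1 Hz, Yme1l1 (−0.084 to 0.053) and Mfn2 (−0.07029 to 0.002454) for 10 against 1 Hz, and Oma1 (−0.11 to 0.003281) and Opa1 (−0.08977 to 0.00731) for 10 against 4 Hz.

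Values that changed sign in the comparison with Control were as follows. Mfn2 at 4 Hz was −0.006429 with DESeq2, −0.00108 with its size factors in edgeR, −0.019 with no filter, −0.002131 with only the 2 groups, −0.30 on log2(TPM + 0.1), and −0.29 on log2(TPM + 1). Mff and Pink1 at 1 Hz were −0.004005 and −0.01235 on log2(TPM + 0.1), and −0.003974 and −0.01216 on log2(TPM + 1). Oma1 at 4 Hz was 0.11 with effective length offsets and 0.15 on centred TPM, and Mff at 10 Hz 0.017 and 0.01244. With the length trend removed, Mfn2 and Yme1l1 at 1 Hz were 0.033 and 0.044, and Opa1 at 4 Hz 0.003838.

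For 4 against 1 Hz, Oma1 was 0.054 without the 5 libraries, 0.17 with effective length offsets, 0.17 on centred TPM, 0.10 on log2(TPM + 0.1), and 0.081 on log2(TPM + 1). Opa1 was 0.006163 with the offsets and 0.013 with the length trend removed, and Mfn2 −0.03217 and −0.03168 on the same scales. For 10 against 1 Hz, Oma1 was 0.0008082 and Yme1l1 0.044 without the 5 libraries, Yme1l1 0.003487 with no filter, and Fis1 0.001134 with the length trend removed. On log2(TPM + 0.1) and log2(TPM + 1), Mfn2 was 0.14 and 0.14, Opa1 0.15 and 0.15, Oma1 0.13 and 0.11, and Yme1l1 0.18 and 0.18. For 10 against 4 Hz, Oma1 was 0.0203 and Yme1l1 −0.034 with the length trend removed, and on those TPM scales Mfn2 was 0.17 and 0.17, Opa1 0.25 and 0.24, and Oma1 0.03054 and 0.0295.

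Replicate numbers did not pair the libraries, since the mean correlation of same-numbered libraries was −0.02 (−0.33 to 0.24 over 36 pairs) and 0 libraries correlated best with their own number. With the replicate number as a block, all-gene calls were 4613, 6647, and 3 at 1, 4, and 10 Hz, companion calls 17, 30, and 0, Mff at 1 Hz was at 0.22 (edgeR adjusted p = 0.069), and Pink1 at 10 Hz at 0.005414.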
